A study of Mus musculus with 16 samples.

Results

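Transcripts of 9 genes that make reactive oxygen species or nitric oxide, or that remove the peroxide formed, were followed in mouse jejunal enteroids. The genes were taken by name from the count table, in which all 9 were found among 54532 genes: Nox1, Noxo1, Noxa1, Cyba, Duox1, Duox2, Duoxa2, Nos2 and Gpx2. Enteroids are epithelial cultures grown from intestinal crypts, and RNA of 16 cultures was sequenced, 4 in each of 4 groups, with each culture from a different mouse of its group. Adult mice of the genotype Vil1-CreERT2;Myo5b flox/flox were the source of MYO5BΔIEC enteroids, and Vil1-CreERT2;Myo5b flox/G519R mice that of MYO5B(G519R) enteroids, in which Cre recombinase leaves the allele with the G519R point mutation. The Vil1 promoter confines Cre to the intestinal epithelium, and in both groups it was induced in culture by 1 µM 4-OH-tamoxifen over 24 h. Part of the MYO5BΔIEC cultures then received Compound-1, an agonist of the lysophosphatidic acid receptor LPAR5, at 100 nM for 2 days in the medium that all groups were differentiated in, and the others received vehicle. Controls are described in the methods as flox/flox cultures given vehicle in place of 4-OH-tamoxifen and elsewhere as healthy littermates, and the sample labels name 4-OH-tamoxifen for the other groups alone. A response to the drug itself and a response to the loss of MYO5B therefore cannot be told apart in comparisons with control.

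NADPH oxidases pass electrons from NADPH across a membrane to oxygen. NOX1 makes superoxide and needs the partner p22phox, encoded by Cyba, the organizer NOXO1, the activator NOXA1 and the small GTPase RAC1. The dual oxidases DUOX1 and DUOX2 release hydrogen peroxide at the apical surface of epithelia and leave the endoplasmic reticulum only with their maturation factors DUOXA1 and DUOXA2. In the gut these enzymes, together with the inducible nitric oxide synthase encoded by Nos2, take part in defense against microbes, and GPX2, the glutathione peroxidase of the gastrointestinal epithelium, reduces peroxides.

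Sequence is given for the genes on which the results turn most, upstream of Nox1 and between the gene models of Duox2 and Duoxa2. Of the 9 genes, 8 had an entry in a RefSeq table (GRCm38.p6) of promoters that run from 250 bases before to 50 bases after the start. Duox2 and Duoxa2 lie head to head on chromosome 2, Duox2 on the minus strand and Duoxa2 on the plus strand. The promoter entries place their starts 673 bases apart, at 122298227 and 122298900. The RefSeq gene model of Duox2 ends further on, at 122298740, and the Duox2 gene used for the counts ends at 122298165. The stretch between the RefSeq gene models is chr2:122298741-122298899, read on the Duoxa2 strand. It holds the letters TATAAA at positions -30 to -25 from the Duoxa2 start, shown in capitals below. It holds none of the 250 bases before the Duox2 start of the promoter entries. The bases before the Nox1 start of the promoter entries are chrX:134111855-134112104, read on the minus strand. They hold a match to the NF-kB consensus GGGRNNYYCC, read on the opposite strand, at positions -91 to -82, also in capitals. In it R stands for A or G, Y for C or T and N for any base. The Nox1 gene used for the counts runs to 134221956, so this stretch lies within it.
Duox2 and Duoxa2: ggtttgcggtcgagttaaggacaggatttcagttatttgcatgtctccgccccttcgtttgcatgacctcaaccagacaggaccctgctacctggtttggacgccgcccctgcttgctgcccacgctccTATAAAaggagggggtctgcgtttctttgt
Nox1: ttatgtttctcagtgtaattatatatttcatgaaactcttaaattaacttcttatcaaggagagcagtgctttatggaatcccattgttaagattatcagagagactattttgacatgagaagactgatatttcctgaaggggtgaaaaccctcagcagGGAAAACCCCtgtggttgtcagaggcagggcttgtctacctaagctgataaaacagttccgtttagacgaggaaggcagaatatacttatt
Both strands of all 32851 promoters of the table were searched for 5 motifs. TATAAA was held by 13.6% of them, the NF-kB consensus by 8.46%, the AP-1 motif TGANTCA by 7.81%, the STAT motif TTCNNNGAA by 8.30% and the antioxidant response core TGACNNNGC by 12.4%. Among the 8 promoters, Duoxa2 also held the AP-1 letters, at -168 to -162, which lies within the RefSeq gene model of Duox2. Noxa1 held the NF-kB letters at -249 to -240. No other match was found in these windows.

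Reads were counted per gene, and counts per library came to 27804968 to 40101729. Levels are given in CPM, which are counts relative to a library total scaled by TMM factors, and at these depths a count of 0 allows up to 0.0733 to 0.106 CPM, which covers counting error only. Each pair of groups was tested by the quasi-likelihood method of edgeR, with Benjamini-Hochberg adjustment over those genes that reached 10 counts in 2 or more of the 8 libraries. A gene is said to have risen or fallen when this edgeR adjusted p was under 0.05. The targeted gene Myo5b had a control level of 183 ± 27.9 CPM (SD, n = 4), against 129 ± 29.5 for MYO5BΔIEC, 154 ± 16.3 for MYO5B(G519R) and 111 ± 26.1 CPM for treated enteroids, and its edgeR adjusted p was 0.0503 in MYO5BΔIEC against control. Counts over the whole gene include transcripts without the floxed part or with the point mutation. Control culture 1 stood apart from the other controls, with a mean correlation of 0.969 to them across genes against 0.984 to 0.986 for the others and a summed enterocyte marker level of 3916 CPM against 13340 to 16860. Changes of the 9 genes that pass or lose the threshold without it, and most counts of the lists, are given with and without it. Leaving it out raised the number of all genes that passed in MYO5BΔIEC from 4910 to 7474. Epithelial markers were present in every culture, whereas of the immune markers Adgre1 and S100a8 and of the fibroblast markers Col3a1 and Dcn had no count in any culture. Others were seen in every culture, among them Cd68 at up to 8.89 CPM, Itgam at up to 2.93 CPM and Pdgfrb at up to 1.01 CPM. The 10 immune markers summed to 4.07 to 5.55 CPM in control and 6.51 to 12.1 CPM in MYO5BΔIEC. In MYO5B(G519R) they summed to 6.11 to 7.42 CPM and in treated cultures to 5.56 to 9.97 CPM. Of 4 tested in MYO5BΔIEC against control, Cd68 alone passed, as higher (1.095, SE 0.33, edgeR adjusted p = 0.0332). The 6 fibroblast markers summed to 0.511 to 1.95 CPM. In whole cultures, fewer cells of a type and less RNA per cell cannot be told apart.

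Per gene length, Gpx2 and Cyba were the most abundant of the 9 genes and Duox1 the least. Over the 16 cultures the mean FPKM, the authors' counts scaled by gene length and depth, was 182 for Gpx2, 72.1 for Cyba and 18.8 for Noxa1. Duox2 followed at 9.04, Duoxa2 at 7.26, Nos2 at 5.82, Nox1 at 1.58, Noxo1 at 0.817 and Duox1 at 0.0238. These neighbors were not all separated: Duox2 ranged from 0.718 to 38.0 FPKM over the cultures, Duoxa2 from 0.918 to 24.8 and Nos2 from 0.533 to 31.5, so that the order among the 3 differed between groups. In control, the mean FPKM was 1.96 for Duoxa2, 1.57 for Nox1, 1.56 for Nos2 and 1.38 for Duox2, which differed by less than the spread between cultures. Subunits of the NOX1 complex had unequal FPKM, with Cyba at 17.1 to 466 times that of Nox1 and Noxa1 at 7.09 to 53.7 times that of Noxo1. The ratio to Noxo1 has a limit, as 70.4% of the Noxo1 exon bases are shared with Tbl3 on the opposite strand. How reads in shared bases were counted is not known.

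**Figure D1:**
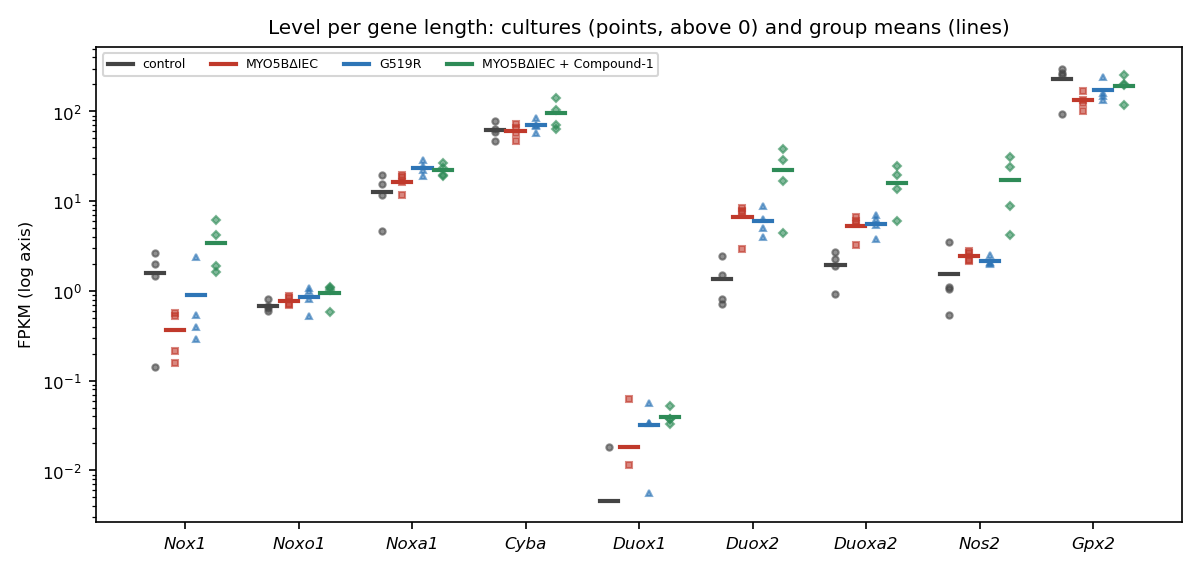
FPKM (log axis) of the 9 genes, with 1 point per culture above 0 and a line at each group mean, which includes cultures at 0. Gpx2 and Cyba lie above all other genes in every group mean, and Duox1 lies below 0.1 FPKM in all cultures.

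In MYO5BΔIEC against control enteroids, Duox2 and its maturation factor Duoxa2 rose and Nox1 fell. Of the 9 genes, 8 had enough counts to be tested. Of these 3 passed (27.4% of all 17951 genes tested did), 2 as higher (13.5% of all genes) and 1 as lower (13.8% of all genes). Duox2 and Duoxa2 were also the genes whose groups did not overlap, 2 of 8 where 14.5% of all genes were separated as higher. These shares are near those of the whole transcriptome. The median log2 fold change of the 8 genes was 0.25, and that of all genes tested was -0.01.

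Duox2 (ENSMUSG00000068452, chromosome 2, 122279247 to 122298165, GRCm38) encodes the dual oxidase of the gut. In cultures 1 to 4 it was at 15.6, 9.57, 5.21 and 4.57 CPM in control. In MYO5BΔIEC it was at 49.4, 53.3, 48.9 and 19.3 CPM. The lowest MYO5BΔIEC culture, number 4, lay above the highest control. The log2 fold change was 2.24 with an SE of 0.42 (edgeR adjusted p = 0.00418), a 4.74-fold higher level, and all 8 fits that left out 1 culture kept the call. Without control culture 1 it was 2.66.

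Duoxa2 (ENSMUSG00000027225, chromosome 2, 122298900 to 122302885) encodes the factor that brings DUOX2 to the cell surface. Its levels in control were 4.32, 3.62, 2.99 and 1.45 CPM. In MYO5BΔIEC they were 9.20, 10.5, 9.41 and 5.29 CPM, again without overlap and again lowest in culture 4. The log2 fold change was 1.43 with an SE of 0.33 (edgeR adjusted p = 0.0105), and the call held in every fit with 1 culture fewer, with 1.61 without control culture 1. The exons of Duoxa2 share 682 bases with Duoxa1 on the opposite strand, 42.8% of its exon bases, and the library protocol does not name a strand-specific step. Duoxa1 itself, the factor of DUOX1, had 0 to 37 counts in the 16 cultures, against 41 to 1599 for Duoxa2.

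Nox1 (ENSMUSG00000031257, chromosome X, 134086421 to 134221956), the catalytic subunit of the superoxide-producing oxidase, moved the other way. The study picked it from these same cultures for its response to MYO5B loss and to Compound-1, so that its direction in both comparisons is not independent evidence. Its levels were 0.463, 4.84, 6.63 and 8.65 CPM in control and 1.80, 0.517, 0.697 and 1.93 CPM in MYO5BΔIEC. Control culture 1 was below all 4 MYO5BΔIEC cultures and the other 3 controls were above them. The log2 fold change was -2.11 with an SE of 0.71 (edgeR adjusted p = 0.0483), and without control culture 1 it was -2.49 (edgeR adjusted p = 0.000883). In each of the other 7 fits that left out 1 culture the call was lost, with an edgeR adjusted p of 0.0609 to 0.133. Of the Nox1 exon bases, 12.1% are shared with Cstf2 on the opposite strand, a gene at 74.6 to 131 CPM.

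Gpx2 (ENSMUSG00000042808, chromosome 12, 76792333 to 76795554) was at 301, 826, 856 and 962 CPM in control and 408, 435, 327 and 565 CPM in MYO5BΔIEC. As for Nox1, control culture 1 lay below all MYO5BΔIEC cultures and the other 3 controls above them. On the log2 scale Gpx2 differed by -0.82 (SE 0.32, edgeR adjusted p = 0.0811), and -1.09 (edgeR adjusted p = 0.000535) without control culture 1. DESeq2, the tool the study used, gave -0.81 (DESeq2 adjusted p = 0.0398) with all cultures. A processed pseudogene, Gpx2-ps1 on chromosome 7, had 8 to 35 counts per culture against 9392 to 33037 for Gpx2.

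Nos2 (ENSMUSG00000020826, chromosome 11, 78920787 to 78960254), the inducible nitric oxide synthase, was at 15.4, 4.90, 4.59 and 2.34 CPM in control. In MYO5BΔIEC it was at 12.6, 9.56, 9.72 and 12.0 CPM, below control culture 1 and above the others. On the log2 scale the difference was 0.65 (SE 0.45, edgeR adjusted p = 0.32), and 1.41 (edgeR adjusted p = 0.00136) without control culture 1.

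The partners of NOX1 did not pass. Noxo1 (ENSMUSG00000019320, chromosome 17, 24696234 to 24700529) was at 1.81 to 2.41 CPM in control and 2.15 to 2.72 CPM in MYO5BΔIEC (log2 fold change 0.17, SE 0.23, edgeR adjusted p = 0.637). Tbl3 covers 70.4% of the Noxo1 exon bases on the opposite strand at 37.5 to 73.2 CPM, and Noxo1 itself had 51 to 134 counts. How far reads of Tbl3 enter them was not tested. Noxa1 (ENSMUSG00000036805, chromosome 2, 25085667 to 25095149) was at 7.43 to 31.3 CPM in control and 18.7 to 31.7 CPM in MYO5BΔIEC (0.34, SE 0.35, edgeR adjusted p = 0.519). Cyba (ENSMUSG00000006519, chromosome 8, 122424776 to 122432930) was at 47.8 to 81.3 and 48.0 to 75.8 CPM (-0.06, SE 0.19, edgeR adjusted p = 0.846), and its sign turned in 3 of 19 other fits. Duox1 (ENSMUSG00000033268, chromosome 2, 122315672 to 122347972) had counts of 0, 3, 0 and 0 in control and 11, 2, 0 and 0 in MYO5BΔIEC, too few for a test.

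**Figure D2:**
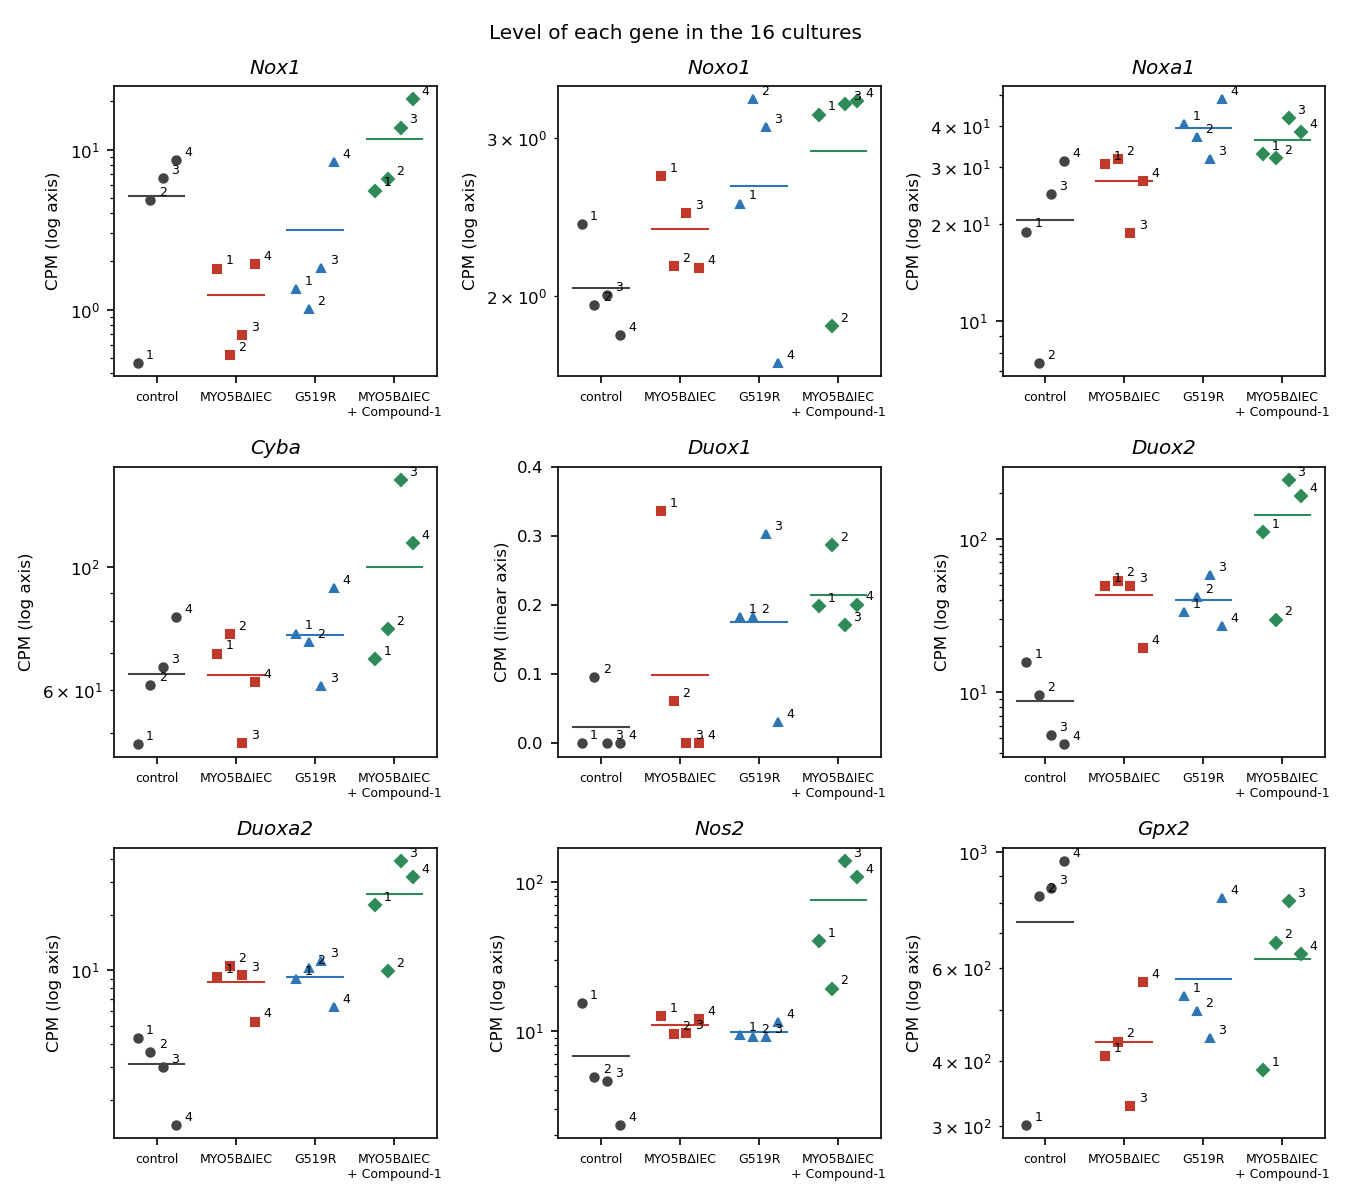
CPM of the 9 genes in the 16 cultures (log axes, linear for Duox1), with the culture number beside each point and a line at each group mean. Duox2 and Duoxa2 lie above control in all MYO5BΔIEC and MYO5B(G519R) cultures, and control culture 1 lies apart from the other controls for Nox1, Nos2 and Gpx2.

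MYO5B(G519R) enteroids were compared with the same 4 controls, so that this comparison and the former share them. Duox2 and Duoxa2 rose here too and no member fell, 2 of 8 tested (26.8% of all 17829 genes passed, 13.1% as higher and 13.7% as lower). Duox2 was at 33.4, 41.4, 58.2 and 26.9 CPM in cultures 1 to 4 of MYO5B(G519R), all above control, a log2 difference of 2.12 with an SE of 0.39 (edgeR adjusted p = 0.00502). Duoxa2 was at 8.95, 10.3, 11.3 and 6.35 CPM, also all above control, with 1.49 (SE 0.32, edgeR adjusted p = 0.00835). Both genes were lowest in culture 4, and both calls held whichever culture was left out. Without control culture 1 the values were 2.57 for Duox2 and 1.72 for Duoxa2.

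Noxa1, the activator of NOX1, was the third gene whose groups did not overlap (16.3% of all genes were separated as higher). It stood at 40.6, 37.0, 31.7 and 48.5 CPM in MYO5B(G519R) against 18.9, 7.43, 24.7 and 31.3 CPM in control. Its log2 fold change was 0.85 with an SE of 0.35 (edgeR adjusted p = 0.0989), and DESeq2 gave 0.88 (DESeq2 adjusted p = 0.0411). Nox1 was at 1.34, 1.00, 1.82 and 8.38 CPM, so that culture 4 was at the level of the upper controls and the other 3 below them (-0.81, SE 0.82, edgeR adjusted p = 0.503). Without culture 4 of MYO5B(G519R) the log2 fold change of Nox1 was -1.97 (edgeR adjusted p = 0.0961), and without control culture 1 it was -1.17 (edgeR adjusted p = 0.15).

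Gpx2 was at 532, 497, 441 and 818 CPM in MYO5B(G519R), with its highest value in the culture that was highest for Nox1. Its difference from control was -0.46 (SE 0.34, edgeR adjusted p = 0.346), and -0.69 (edgeR adjusted p = 0.011) without control culture 1. Nos2, at 9.41, 9.13, 9.10 and 11.5 CPM, varied little among these cultures, and its change of 0.45 (SE 0.46, edgeR adjusted p = 0.513) was 1.25 (edgeR adjusted p = 0.00202) without control culture 1. Cyba (60.9 to 91.8 CPM) and Noxo1 (1.68 to 3.32 CPM) overlapped control, with edgeR adjusted p of 0.578 and 0.428. Duox1 had 6, 6, 11 and 1 counts and was not tested against control.

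Tested directly, MYO5B(G519R) and MYO5BΔIEC enteroids did not differ in any of the 9 genes by edgeR, of which all 9 were tested (0.00557% of 17943 genes passed), nor by DESeq2. Duox2 differed by -0.12 (SE 0.31, edgeR adjusted p = 0.941) and Duoxa2 by 0.08 (SE 0.25, edgeR adjusted p = 0.953) in log2 units, and the sign of each turned in some other fits. At an unadjusted p under 0.05, 1 of the 9 genes was found (4.30% of all genes). This was Noxa1 (0.52, SE 0.18, edgeR adjusted p = 0.838), which was also the 1 gene whose groups did not overlap (1.04% of all genes were separated as higher). Nox1 differed by 1.30 (SE 0.67, edgeR adjusted p = 0.838), and by 0.15 without culture 4 of MYO5B(G519R). Duox1 passed the count filter through a single culture of each group and differed by 0.77 (SE 1.05, edgeR adjusted p = 0.883).

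For the effect of Compound-1, 4 treated MYO5BΔIEC cultures were compared with the 4 that received vehicle. All 8 genes tested had higher point estimates in the treated cultures, with a median log2 fold change of 1.09 against 0.00 for all 18037 genes. By edgeR none passed the adjusted threshold, as no gene of the whole table did (0% called). At an unadjusted p under 0.05 there were 7 of the 8, where 7.51% of all genes were found. DESeq2 called 3 of them, Nox1, Nos2 and Duoxa2, and 0.505% of all genes. edgeR without a count filter called 2, Nox1 and Nos2, and 0.0403% of 29806 genes. The groups did not overlap for Nox1, Nos2 and Noxa1, 3 of 8 where 1.46% of all genes were separated as higher. Each of these counts includes Nox1, which the study picked from the same cultures for its response to Compound-1. The other genes were also chosen with earlier results of these data known. Setting the counts against the shares of all genes is therefore a description and cannot test for enrichment.

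Nox1 had the lowest p of the 18037 genes. It was at 1.80, 0.517, 0.697 and 1.93 CPM with vehicle and at 5.54, 6.55, 13.7 and 20.7 CPM with Compound-1, where every treated culture lay above every vehicle culture. The log2 fold change was 3.20 with an SE of 0.52 (edgeR adjusted p = 0.532), 9.20-fold on the linear scale. DESeq2 gave 3.21 (DESeq2 adjusted p = 1.64e-07). As stated above, the study picked this gene from these cultures.

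Nos2 had the next lowest p. Its levels were 12.6, 9.56, 9.72 and 12.0 CPM with vehicle and 40.1, 19.3, 138 and 108 CPM with Compound-1. All treated cultures were above the vehicle range, but culture 3 was at several times the level of culture 2. The log2 fold change was 2.77 with an SE of 0.50 (edgeR adjusted p = 0.532), and DESeq2 gave 2.78 (DESeq2 adjusted p = 0.00911).

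Duox2 and Duoxa2 shared a pattern over the treated cultures. Duox2 was at 110, 29.7, 241 and 189 CPM and Duoxa2 at 22.5, 9.90, 39.1 and 32.0 CPM. Treated culture 2 lay within the vehicle range for both genes and the other 3 above it. The difference on the log2 scale was 1.71 for Duox2 (SE 0.52, edgeR adjusted p = 0.532, rank 226 by p) and 1.56 for Duoxa2 (SE 0.37, edgeR adjusted p = 0.532, rank 23), and DESeq2 gave an adjusted p of 0.27 and 0.0175.

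The partners of NOX1 had smaller differences. Noxa1 was at 32.7, 31.9, 42.4 and 38.4 CPM with Compound-1 and at 18.7 to 31.7 CPM with vehicle, a gap of less than 1 CPM between the groups (0.41, SE 0.18, edgeR adjusted p = 0.66). Cyba was at 68.2, 77.3, 144 and 111 CPM and overlapped the vehicle cultures (0.62, SE 0.23, edgeR adjusted p = 0.578). Noxo1 was at 1.85 to 3.30 CPM (0.27, SE 0.27, edgeR adjusted p = 0.925). Gpx2 was at 384, 672, 807 and 639 CPM, with culture 1 inside the vehicle range (0.50, SE 0.23, edgeR adjusted p = 0.664). Duox1 had 6, 9, 7 and 7 counts in the treated cultures, so that it was seen in all 4, and was not tested.

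**Figure D3:**
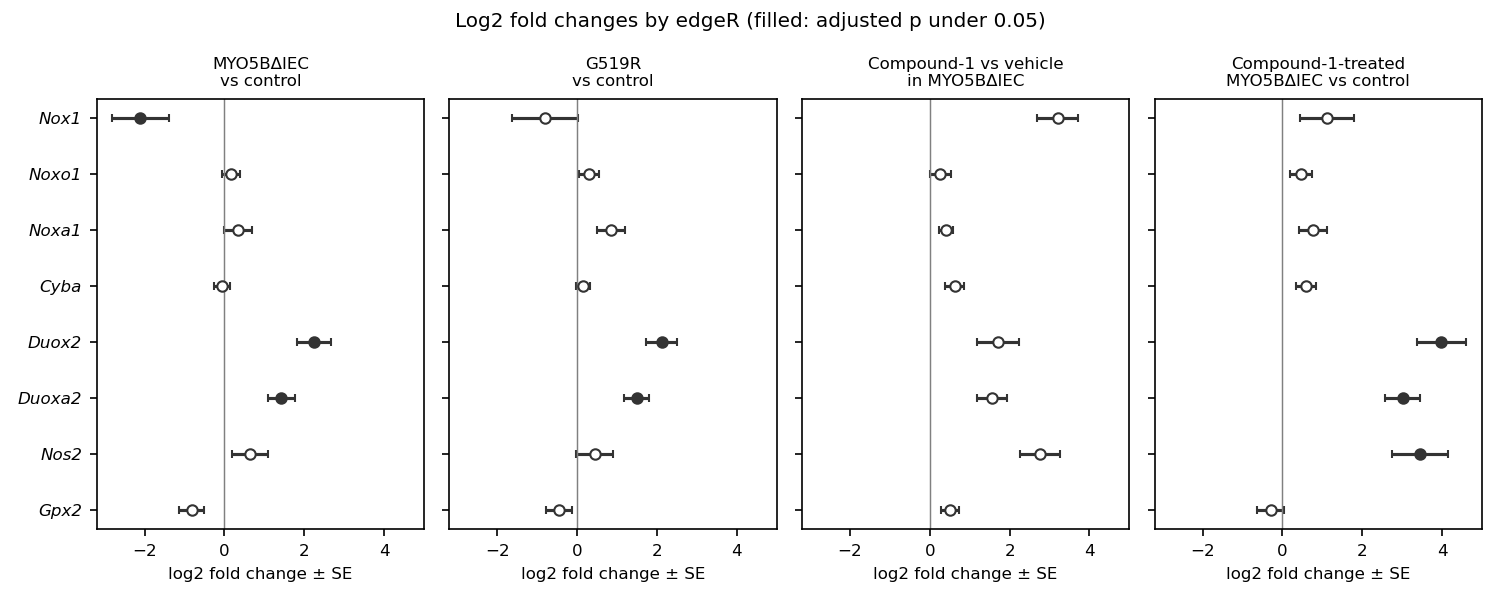
Log2 fold change with its SE for the 8 tested genes in 4 comparisons, filled where the edgeR adjusted p was under 0.05. Duox2 and Duoxa2 are filled in the 3 comparisons with control, and no gene is filled for Compound-1 against vehicle.

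Marker levels of goblet cells moved with some of these values. The 8 goblet markers summed to 1387 to 1733 CPM in control, where Duox2 and Duoxa2 were lowest, and to 1988 to 2386 CPM in MYO5B(G519R). Against control the list was mixed, with 2 markers higher, 1 lower and a median of -0.18 in MYO5BΔIEC, and 2 higher, 2 lower and a median of 0.00 in MYO5B(G519R). Without control culture 1, 3 were higher and 2 lower in each of these groups, where 7474 of 17783 and 8146 of 17647 genes passed. The sum against control was carried by Fcgbp, at a mean of 448.5 CPM in control and 1239 CPM in MYO5BΔIEC. The markers summed to 1915 to 2443 CPM in the vehicle cultures and to 2265, 2009, 5929 and 4247 CPM in treated cultures 1 to 4, so that the sum was high in the 2 cultures in which Nox1, Nos2, Duox2, Duoxa2 and Cyba were highest. All 8 goblet markers had positive point estimates against vehicle, with a median of 0.70 on the log2 scale, and none passed by edgeR. In treated culture 1, Duox2 was at 110 CPM and Nos2 at 40.1 CPM, above all vehicle cultures, with the goblet sum inside the vehicle range. In treated culture 2, with the lowest goblet sum of the 4, Nox1 was at 6.55 CPM and Nos2 at 19.3 CPM, both above all vehicle cultures. The 10 enterocyte markers summed to 6808 to 9049 CPM in treated and 7494 to 14010 CPM in vehicle cultures. Of their point estimates against vehicle, 9 were negative and 1 positive, with a median of -0.68 on the log2 scale, and none passed by edgeR. Sums of other lists differed in the comparisons with control. The 5 stem cell markers summed to 2210 to 6012 CPM in control and 808 to 2015 CPM in MYO5BΔIEC. Of these, 1 passed there, Olfm4, as lower. The list did not fall as a whole, since 3 of its point estimates were positive and 2 negative. Its median log2 fold change was 0.02. The 6 Paneth cell markers summed to 3191 CPM in control culture 1, 6397 to 7456 CPM in the other controls, 3112 to 4543 CPM in MYO5BΔIEC and 3201 to 4119 CPM in MYO5B(G519R). Mitochondrially encoded genes took 6.41 to 10.4% of the control counts, against 4.16 to 6.63% for MYO5BΔIEC and 4.20 to 5.37% for MYO5B(G519R). The part of these cell types and of this share in the differences was not tested.

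**Figure D4:**
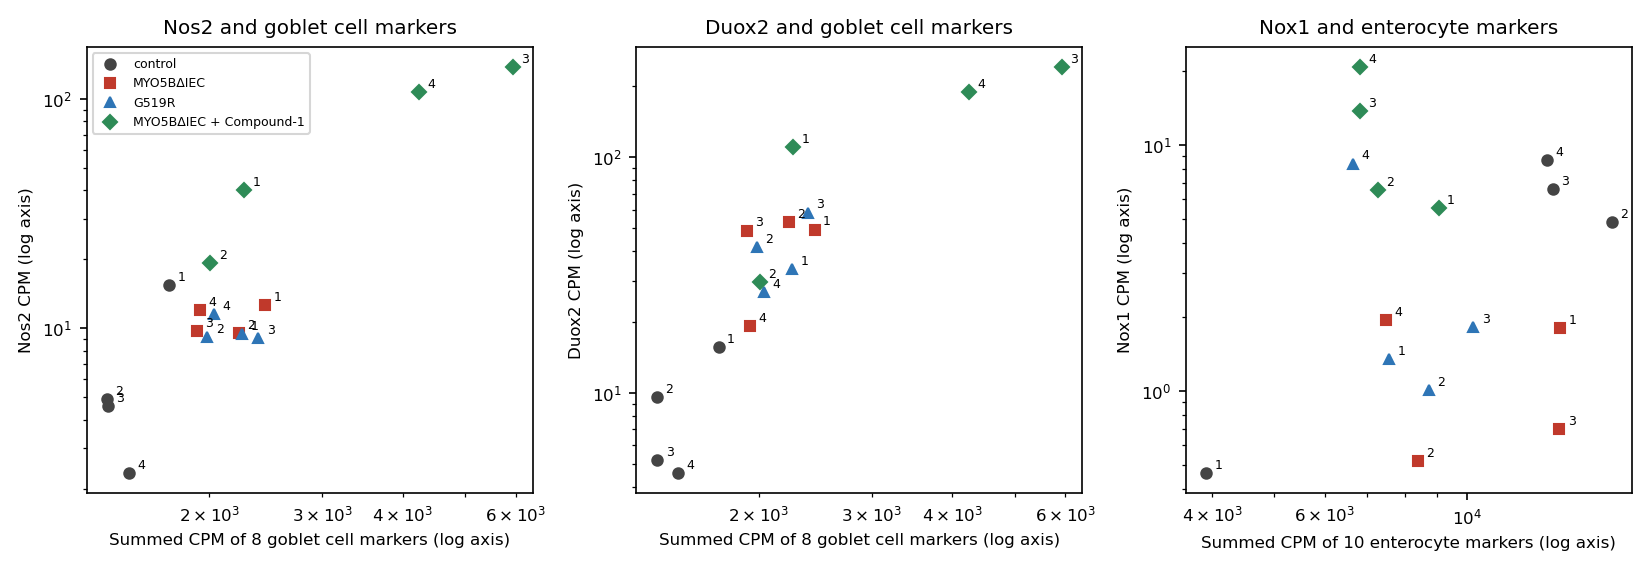
Summed CPM of 8 goblet cell markers or 10 enterocyte markers (log x axis) against the CPM of Nos2, Duox2 or Nox1 (log y axis), with 1 point per culture and its number. Treated cultures 3 and 4 lie at the upper right for Nos2 and Duox2, and control culture 1 has the lowest enterocyte sum and the lowest Nox1.

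Compound-1-treated MYO5BΔIEC enteroids were also set against control. Duox2, Nos2 and Duoxa2 rose and none fell, 3 of 8 tested (29.4% of all 17937 genes passed, 15.7% as higher and 13.7% as lower). On the log2 scale Duox2 was higher by 3.98 (SE 0.63, edgeR adjusted p = 0.00414), with 3.44 (SE 0.70, edgeR adjusted p = 0.00744) for Nos2 and 3.01 (SE 0.44, edgeR adjusted p = 0.00398) for Duoxa2. Their levels were thus 15.8, 10.9 and 8.08 times those of control, and each call held in all 8 fits that left out 1 culture. Together with Noxa1 these were the 4 genes whose groups did not overlap (16.1% of all genes were separated as higher). Noxa1 itself had 0.77 (SE 0.35, edgeR adjusted p = 0.119) and Cyba 0.59 (SE 0.25, edgeR adjusted p = 0.103). Nox1, at 5.54 to 20.7 CPM against 0.463 to 8.65 CPM in control, overlapped it (1.12, SE 0.68, edgeR adjusted p = 0.238), as did Gpx2 (-0.29, SE 0.34, edgeR adjusted p = 0.555) and Noxo1 (0.46, SE 0.27, edgeR adjusted p = 0.233). Without control culture 1, Duox2 was higher by 4.43, Nos2 by 4.23 and Duoxa2 by 3.23 in log2 units. Nox1 then stood at 0.76 (edgeR adjusted p = 0.198) and Gpx2 at -0.53 (edgeR adjusted p = 0.0794).

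Over the 16 cultures, Duox2 and Duoxa2 varied most closely together. On log2(CPM + 0.5) their Pearson r was 0.982 (Spearman rho 0.965) over 16 cultures, 0.955 with the group means removed and 0.982 without the 2 cultures farthest from the median of Duox2. Among 13540 genes with a mean of at least 1 CPM, Duoxa2 was the gene most like Duox2, followed by Dock6 (r = 0.980) and Atrnl1 (r = 0.978). Per length, Duox2 stood at 0.433 to 0.899 times the FPKM of Duoxa2 in control and at 0.905 to 1.33 times in MYO5BΔIEC. The ratio was 0.928 to 1.28 in MYO5B(G519R) cultures and 0.745 to 1.53 with Compound-1. It is limited by the 42.8% of Duoxa2 exon bases shared with Duoxa1. These correlations are descriptions over cultures that fall into groups that differ in many genes. Whether the libraries were prepared together is not stated in the methods.

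Nos2 followed Duox2 less closely, with r = 0.862 (rho 0.612), and 0.774 with the group means removed. In the 8 MYO5BΔIEC and MYO5B(G519R) cultures without Compound-1, Nos2 stayed at 9.10 to 12.6 CPM while Duox2 ran from 19.3 to 58.2 CPM, and the cultures with the least Duox2 were not low in Nos2. The genes most like Nos2 were Adam9 (r = 0.958), Mmp28 (r = 0.948) and Slk (r = 0.947). Nox1 was unlike both, with r = 0.136 to Duox2 and 0.415 to Nos2, and -0.422 and -0.179 without the 2 cultures farthest from the median of Nox1.

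Nox1 was closer to Gpx2 (r = 0.760, rho 0.756, 0.847 with the group means removed) and Cyba (r = 0.722, rho 0.662). The genes most like Nox1 were Gmds (r = 0.922), Cd9 (r = 0.912) and Kcnk1 (r = 0.894). For Gpx2 they were Dnaja1 (r = 0.958), Cwc15 (r = 0.949) and Commd4 (r = 0.938). Noxo1 was nearer to Duox2 (r = 0.767) than to Nox1 (r = -0.04), its partner in the NOX1 complex, with the limit that most of its exon bases are shared with Tbl3.

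**Figure D5:**
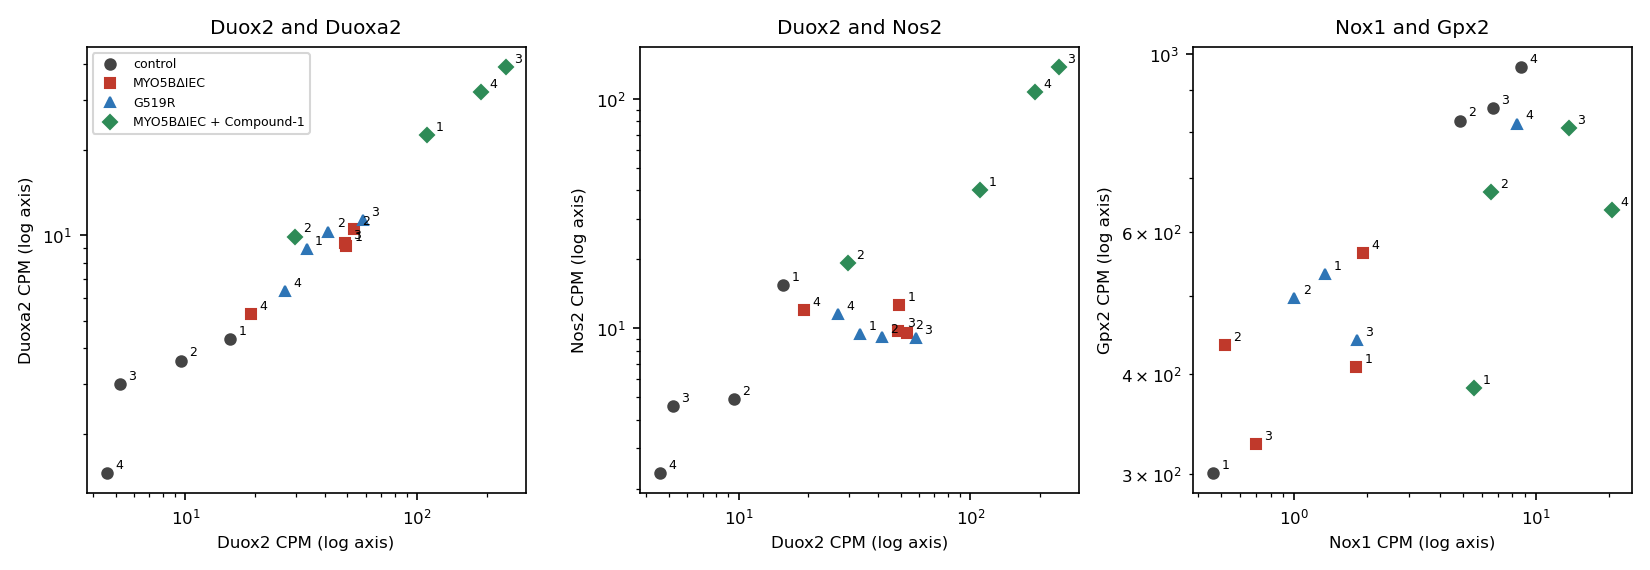
CPM of 2 genes against each other in the 16 cultures (log axes), with the culture number beside each point. Duox2 and Duoxa2 form 1 band over all groups, whereas the MYO5BΔIEC and MYO5B(G519R) cultures span 19.3 to 58.2 CPM of Duox2 with Nos2 between 9.10 and 12.6 CPM.

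The other genes of these pathways were described by lists, with up to 2 genes that rose most and 2 that fell most in MYO5BΔIEC named. Of all genes tested, 13.5% rose and 13.8% fell in MYO5BΔIEC, and 13.1% rose and 13.7% fell in MYO5B(G519R). Of 11 other NADPH oxidase genes 5 were tested, 1 rose and none fell in MYO5BΔIEC, with a median log2 fold change of -0.05. The riser was Rac1, the GTPase that activates NOX1, from 229 ± 49.1 CPM (SD, n = 4) in control to 345 ± 28.5 (0.54, SE 0.16, edgeR adjusted p = 0.0309), and 328 ± 12.2 in MYO5B(G519R) (0.44, SE 0.15, edgeR adjusted p = 0.0516). The call in MYO5BΔIEC was lost in 8 of 19 other fits. Cybb and Nox3, the catalytic subunits of phagocytes and of the inner ear, had no count in any culture, and Nox4 had at most 5. Of the cytosolic phagocyte subunits, Ncf1 had at most 9 counts per culture and Ncf4 at most 1.

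Of 15 genes for the removal of superoxide and peroxide, 14 were tested in MYO5BΔIEC, 2 rose and 6 fell, with a median log2 fold change of -0.35 against -0.01 for all genes. In MYO5B(G519R) 1 rose and 5 fell, with a median of -0.42. Without control culture 1, 8 fell in MYO5BΔIEC and 9 in MYO5B(G519R), with 2 and 1 that rose. More of all genes passed in these 2 fits as well, 7474 of 17783 and 8146 of 17647. Gpx3, the secreted glutathione peroxidase, rose from 1.80 ± 0.426 CPM to 5.50 ± 1.61 in MYO5BΔIEC (1.56, SE 0.28, edgeR adjusted p = 0.00387) and also rose in MYO5B(G519R) (1.01, SE 0.31, edgeR adjusted p = 0.037). Its call in MYO5B(G519R) was lost in 5 of 19 other fits. Prdx4, the peroxiredoxin of the endoplasmic reticulum, fell from 63.1 ± 18.3 to 24.7 ± 3.71 CPM (-1.41, SE 0.23, edgeR adjusted p = 0.00259) and in MYO5B(G519R) to 35.2 ± 6.20 CPM (-0.93, SE 0.23, edgeR adjusted p = 0.0163). Sod1, the cytosolic superoxide dismutase, fell from 534 ± 244 to 268 ± 30.1 CPM in MYO5BΔIEC (-1.06, SE 0.36, edgeR adjusted p = 0.0492), a call that 12 of 19 other fits lost, and was at -1.35 without control culture 1. It did not pass in MYO5B(G519R) (-0.74, SE 0.37, edgeR adjusted p = 0.168). Of 15 genes that recycle glutathione and thioredoxin, 1 rose and 1 fell in MYO5BΔIEC, with a median of -0.10. Txnrd1, thioredoxin reductase, rose from 282 ± 55.4 to 519.4 ± 59.3 CPM (0.83, SE 0.17, edgeR adjusted p = 0.00587) and Glrx2, the mitochondrial glutaredoxin, fell from 24.1 ± 1.71 to 18.5 ± 1.07 CPM (-0.44, SE 0.13, edgeR adjusted p = 0.0299), with 10 of 19 other fits losing the latter call. In MYO5B(G519R) Txnrd1 rose too (edgeR adjusted p = 0.0114) and Glrx2 did not pass (edgeR adjusted p = 0.0592). Of this list 1 rose and 4 fell in MYO5BΔIEC without control culture 1 (7474 of all 17783 genes passed).

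Around NOS2, 11 of 12 nitric oxide and arginine genes were tested, and 3 rose and 2 fell in MYO5BΔIEC, with a median of -0.10. Ass1, which remakes the substrate arginine from citrulline, rose from 10.3 ± 1.69 to 36.0 ± 16.8 CPM (1.76, SE 0.31, edgeR adjusted p = 0.00341) and to 26.6 ± 8.52 CPM in MYO5B(G519R) (1.29, SE 0.23, edgeR adjusted p = 0.00465). Ddah1, which degrades inhibitors of nitric oxide synthases, rose from 23.1 ± 7.003 to 43.8 ± 10.7 CPM (0.88, SE 0.24, edgeR adjusted p = 0.0198). Of the genes of the cofactor tetrahydrobiopterin, Qdpr had a log2 fold change of -0.69 with an SE of 0.19 (edgeR adjusted p = 0.0199) and Pts of -0.57 with an SE of 0.15 (edgeR adjusted p = 0.0205), and both fell, calls that 6 and 5 of 19 other fits lost. Gch1, the enzyme that starts synthesis of the cofactor, rose (0.73, SE 0.15, edgeR adjusted p = 0.00556), and Spr, its last enzyme, had -0.10 (SE 0.16, edgeR adjusted p = 0.676). These 2 genes were added after their values were seen. With control culture 1 left out, 3 of the list rose and 3 fell in MYO5BΔIEC (7474 of all 17783 genes passed). In MYO5B(G519R) 2 of the list rose and 0 fell. Ddah1, Qdpr and Pts did not pass there (edgeR adjusted p = 0.072, 0.0948 and 0.0525).

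Of 13 other oxidant-producing enzymes 9 were tested, 2 rose and 1 fell in MYO5BΔIEC, with a median of -0.11. Xdh, xanthine dehydrogenase, rose from 61.3 ± 24.1 to 135 ± 32.3 CPM (1.08, SE 0.28, edgeR adjusted p = 0.0163), but did not pass in MYO5B(G519R) (0.68, SE 0.32, edgeR adjusted p = 0.142). Maoa, monoamine oxidase A, fell from 575 ± 141 to 370 ± 69.5 CPM (-0.69, SE 0.22, edgeR adjusted p = 0.0375) and in MYO5B(G519R) to 318 ± 53.2 CPM (-0.94, SE 0.20, edgeR adjusted p = 0.00833). Of 19 other fits, 10 lost the call of Maoa in MYO5BΔIEC and none that in MYO5B(G519R). Without control culture 1, 2 of the list rose and 2 fell in MYO5BΔIEC (7474 of all 17783 genes passed).

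Epithelial genes that respond to cytokines and microbes, among which Duox2, Duoxa2 and Nos2 are often counted, moved in both directions. Of 18, 13 were tested in MYO5BΔIEC against control, 3 rose and 2 fell, with a median of 0.05. Tnfaip3 and Zc3h12a, inhibitors of inflammatory signaling, rose on the log2 scale, Tnfaip3 by 1.00 (SE 0.18, edgeR adjusted p = 0.00385) and Zc3h12a by 0.96 (SE 0.18, edgeR adjusted p = 0.00403). Reg3a, an antimicrobial lectin, fell from 227 ± 133 to 66.3 ± 36.6 CPM (-1.84, SE 0.53, edgeR adjusted p = 0.0273), and Ccl20, a chemokine, from 9.77 ± 1.22 to 6.68 ± 1.41 CPM (-0.60, SE 0.20, edgeR adjusted p = 0.0487). The call was lost in 10 of 19 other fits for Reg3a, whose groups overlapped, and in 11 for Ccl20. Of the list 4 rose and 4 fell without control culture 1 (7474 of all 17783 genes passed). In MYO5B(G519R) 2 of the list rose and 3 fell, and 2 rose and 4 fell without control culture 1 (8146 of all 17647 genes passed). With Compound-1 against vehicle, 11 of 13 had positive point estimates, with a median of 0.57, and none passed by edgeR. At an unadjusted edgeR p under 0.05 there were 6 of the 13, where 7.51% of all genes were found. Treated MYO5BΔIEC against control gave 6 higher and 1 lower of 15 tested (15.7% and 13.7% of all genes). The list was chosen with earlier results of these data known, so these counts cannot test for enrichment.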

How the data were processed

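RNA of 16 enteroid cultures was analyzed. The deposited counts are whole reads per gene that the authors made with STAR 2.5 and HTSeq 0.6.1 on GRCm38 (mm10), per the labels, which also name TopHat and DESeq2 without a role. The deposited FPKM values are the authors' counts scaled for gene length and depth. How reads that match several places were treated, and strand, are not given in the sources used here. Groups were taken from the sample labels. In R 4.3.3, edgeR 4.0.16 (TMM, quasi-likelihood test, at least 10 counts in at least 2 of 8 libraries, Benjamini-Hochberg, threshold 0.05) compared 2 groups at a time. Counts per library were 27804968 to 40101729. Each SE was taken from the log2 fold change and the F statistic. Alternatives were DESeq2 1.42.0, its size factors, mitochondrially encoded genes left out of library sizes, no filter, filterByExpr, a joint fit of all groups, a replicate block, donor sex, removal of the gene length trend, limma 3.58.1 on log2(FPKM + 1) and log2(FPKM + 0.1), and each culture left out. Donor sex was inferred from the counts of Xist and of Y-linked genes. It came to 2 female and 2 male in control and in MYO5BΔIEC with vehicle. In MYO5B(G519R) and in treated MYO5BΔIEC it came to 1 female and 3 male. The code was tested on simulated data. The members and lists were chosen with earlier results of these data known. Named genes were the members, Myo5b, up to 2 risers and 2 fallers of each list with a mean of at least 1 CPM in MYO5BΔIEC against control, the 3 genes most like Nox1, Duox2, Nos2 and Gpx2, and genes overlapping a member. Some genes that this rule names are not reported here.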

Additional observations from a re-analysis of the deposited data

Results flagged for a closer look

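Groups of 4 cultures were searched for a culture far from the other 3, in the 9 genes, Myo5b and the summed levels of the lists, and 15 of 104 values stood apart by Dixon's criterion (gap over range above 0.829), where chance marks about 1 group in 20.

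Among the genes, Nox1 was at 8.38 CPM in MYO5B(G519R) culture 4 (other cultures 1.00 to 1.82), Duox2 at 19.3 CPM in MYO5BΔIEC culture 4 (others 48.9 to 53.3), Nos2 at 11.5 CPM in MYO5B(G519R) culture 4 (others 9.10 to 9.41) and Noxo1 at 1.85 CPM in treated culture 2 (others 3.19 to 3.30). Duox1 was at 0.0961 CPM in control culture 2, from 3 counts, with no count in the other controls.

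Control culture 1 stood apart in 4 sums: superoxide and peroxide removal at 2738 CPM, glutathione and thioredoxin recycling at 2417 CPM, nitric oxide and arginine genes at 324 CPM and tuft cell markers at 65.6 CPM, the first 3 being low and the last high.

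Among treated cultures, the other NADPH oxidase genes summed to 404 CPM in culture 2, the nitric oxide and arginine genes to 389 CPM in culture 1 and the proliferation markers to 753 CPM in culture 3. In MYO5B(G519R) culture 3 the Paneth cell markers summed to 4119 CPM and the proliferation markers to 1348 CPM. The fibroblast markers summed to 1.95 CPM in MYO5BΔIEC culture 3.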

How the results depend on the processing

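The rises of Duox2 and Duoxa2 against control held in all 19 other fits of MYO5BΔIEC and of MYO5B(G519R). The fall of Nox1 in MYO5BΔIEC was lost in 10 of 19, among them limma on log2(FPKM + 1) (-0.80, limma adjusted p = 0.0948) and on log2(FPKM + 0.1) (-1.51, limma adjusted p = 0.15). When 1 culture was left out, the number of the 9 genes that passed ran from 2 to 5 in MYO5BΔIEC, from 2 to 4 in MYO5B(G519R), and stayed at 3 in treated MYO5BΔIEC against control. Of all genes, 2963 to 7474, 2880 to 8146 and 2957 to 7459 passed in these fits. The 5 and the 4 came without control culture 1, when Nos2 and Gpx2 passed too. Of all genes, 7474 of 17783 and 8146 of 17647 passed in those 2 fits. With the gene length trend removed, 4 passed in MYO5B(G519R) (4869 of all 17829 genes) and 5 in treated MYO5BΔIEC against control (5312 of 17937). With Compound-1 against vehicle, 3 passed by DESeq2 (0.505% of all genes) and 2 without a filter (0.0403%), against 0. Nothing in the labels pairs cultures with the same replicate number, and in no comparison were all pairs correlated above 0.1 in their deviations. The correlations ran from -0.22 to 0.60 over 20 pairs, of which 8 had donors of the same inferred sex. They were highest in MYO5B(G519R) against MYO5BΔIEC, at 0.0852 to 0.60, where 5 of 8 cultures correlated best with their own number, a hint from the data and not from the design, and none of the 9 genes passed there with or without the block. With the replicate block, 2 genes passed in MYO5BΔIEC (Nox1 at -1.97, edgeR adjusted p = 0.142) and 4 in treated MYO5BΔIEC against control (Noxa1 at 0.93, edgeR adjusted p = 0.0484). Of all genes, 3647 of 17951 and 4401 of 17937 passed with the block in these 2 comparisons. The sign of Cyba in MYO5BΔIEC turned to 0.30 with the length trend removed, 0.0794 without control culture 4 and 0.04 without MYO5BΔIEC culture 3, in a range of -0.19 to 0.08 over the fits that left out 1 culture. In MYO5B(G519R) against MYO5BΔIEC, Duox2 turned to 0.0421 with donor sex, 0.0365 without MYO5B(G519R) culture 4 and 0.01 without MYO5BΔIEC culture 2, in a range of -0.36 to 0.04. Duoxa2 turned to -0.04 without MYO5B(G519R) culture 3 and -0.10 without MYO5BΔIEC culture 4, in a range of -0.10 to 0.22. The causes were not tested. Depth limits Duox1, which had at most 11 counts.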
